A study of Mus musculus with 25 samples.

Results

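The genes described here are 34 genes of glucose use and of the response to low oxygen, followed in ribosome-bound mRNA of mouse spinal cord cholinergic neurons. They were listed by known function: the enzymes that split glucose to pyruvate, the lactate dehydrogenases, the carriers of glucose and lactate, the kinases that set the pace of glycolysis or close the entry of pyruvate into mitochondria, and the hypoxia-inducible factors (HIF) with a regulator and targets. A gene was kept with 10 or more counts summed over the 24 immunoprecipitated (IP) libraries, which held for all 34 genes of the list and for 21738 of the 50559 genes counted. In every library the tagged ribosomal protein of the RiboTag allele was pulled down from the spinal cord of 6-month-old male mice, so that mRNA is recovered from cells in which the ChAT-Cre driver has acted, motor neurons and other cholinergic neurons alike. ChAT-BKO mice carried ChAT-Cre;RiboTag fx/+;*Bmal1* fx/fx and lacked the clock activator BMAL1 in these cells, and controls carried ChAT-Cre;RiboTag fx/+, so both genotypes had the driver and 1 tagged allele, and the controls had no floxed *Bmal1*. Each genotype was taken at Zeitgeber Time (ZT) 8, in the light or rest period, and at ZT20, in the dark or active period, with 6 libraries per condition and 1 library of pooled input RNA from both genotypes.

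Glycolysis converts glucose to pyruvate in the cytosol. Pyruvate is then reduced to lactate or passed to mitochondria through pyruvate dehydrogenase, which PDK enzymes switch off. HIF-1 and HIF-2, made of an oxygen-sensitive alpha subunit and the shared ARNT subunit, bind the hypoxia response element and raise many of these genes when oxygen is low. CLOCK:BMAL1 is a related pair of basic helix-loop-helix PAS proteins that binds the E-box CACGTG, a sequence that contains the ACGTG core of the hypoxia response element. The questions the design puts to these genes are whether loss of BMAL1 moves their ribosome-bound mRNA at either time, whether the time of day does, and whether either effect depends on the other.

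Because the deleted factor and the HIF proteins read overlapping letters, the promoters were searched first. RefSeq (GRCm38.p6) gave 48 promoter windows of 300 bases, from 250 bases before to 50 after an annotated start, for 31 of the 34 genes, with no entry for *Epas1*, *Slc16a7*, and *Slc2a3*. On either strand, CACGTG was found in 8 of 48 windows (16.7%), against 7.15% of all 32851 promoter windows. The windows with CACGTG belonged to *Bnip3*, *Hif1a*, *Ldha*, *Pdk2*, *Pfkfb2*, *Pfkfb3*, *Pfkm*, and *Slc16a1*. ACGTG, which is part of every CACGTG, was found in 26 windows (54.2%, against 19.6% of all windows), and ACGTG outside CACGTG in 22 (45.8%, against 13.6%). Windows of alternative starts of a gene can overlap, and a match of letters is not a bound site. Some of the 34 genes were listed as HIF targets, and the set of all windows was not matched to theirs in base composition. The shares are therefore a description.

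Windows of 5 genes are shown 5′ to 3′, with CACGTG or ACGTG (read on either strand, so CACGT on the printed one) in capitals. *Bnip3*, *Slc2a1*, *Egln3*, and *Tpi1* are among the smallest p of a comparison below. *Ldha* is not, and is shown for its E-boxes. A second annotated window of *Ldha*, chr7:46846832-46847131, holds neither sequence. In the windows shown, the matches were as follows. *Ldha* holds 2 E-boxes and 1 further CACGT, *Bnip3* holds 1 E-box, *Slc2a1* and *Egln3* each hold 1 ACGTG outside an E-box, and *Tpi1*, the gene with the smallest p between genotypes at ZT20, holds none of these letters in this window.
Ldha, chr7:46845554-46845853, plus strand: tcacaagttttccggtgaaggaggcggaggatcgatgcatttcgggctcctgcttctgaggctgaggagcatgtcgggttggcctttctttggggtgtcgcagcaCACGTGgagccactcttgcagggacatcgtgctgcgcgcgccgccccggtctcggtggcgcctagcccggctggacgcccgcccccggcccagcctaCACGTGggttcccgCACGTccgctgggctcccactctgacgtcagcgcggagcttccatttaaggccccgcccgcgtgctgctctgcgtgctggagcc
Bnip3, chr7:138909457-138909756, minus strand: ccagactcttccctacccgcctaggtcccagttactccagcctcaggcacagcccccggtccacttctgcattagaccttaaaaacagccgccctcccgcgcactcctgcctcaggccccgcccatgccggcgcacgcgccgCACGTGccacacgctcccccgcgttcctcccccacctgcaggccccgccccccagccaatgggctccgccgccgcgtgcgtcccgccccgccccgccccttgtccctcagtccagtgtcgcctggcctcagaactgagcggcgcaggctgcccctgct
Slc2a1, chr4:119108495-119108794, plus strand: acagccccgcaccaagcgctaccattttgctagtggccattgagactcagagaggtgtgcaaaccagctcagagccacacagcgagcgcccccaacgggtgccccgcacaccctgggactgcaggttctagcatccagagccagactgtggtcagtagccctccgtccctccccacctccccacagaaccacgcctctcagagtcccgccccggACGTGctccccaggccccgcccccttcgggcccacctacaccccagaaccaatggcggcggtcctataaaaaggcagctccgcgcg
Egln3, chr12:54203825-54204124, minus strand: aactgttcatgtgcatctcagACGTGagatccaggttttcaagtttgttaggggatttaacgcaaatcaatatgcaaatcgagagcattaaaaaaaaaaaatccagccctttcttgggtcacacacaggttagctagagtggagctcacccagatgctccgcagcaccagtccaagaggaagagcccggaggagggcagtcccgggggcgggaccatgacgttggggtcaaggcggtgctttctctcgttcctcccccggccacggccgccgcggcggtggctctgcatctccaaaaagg
Tpi1, chr6:124814109-124814408, minus strand: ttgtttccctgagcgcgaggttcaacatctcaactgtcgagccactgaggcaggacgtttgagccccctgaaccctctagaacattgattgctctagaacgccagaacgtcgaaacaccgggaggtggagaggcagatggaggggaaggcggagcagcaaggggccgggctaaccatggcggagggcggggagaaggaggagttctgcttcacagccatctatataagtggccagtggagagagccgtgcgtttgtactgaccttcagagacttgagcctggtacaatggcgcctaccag

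The IP libraries held 4.04 to 31.7 M (mega) counts and the input 7.40 M counts. *Bmal1* (listed as Arntl), the deleted gene, stood at 6.22 to 9.99 CPM (counts per mega-count of the TMM-scaled library total) in controls and 1.97 to 3.30 in ChAT-BKO at ZT8, and at 7.60 to 10.9 and 1.35 to 2.80 at ZT20, without overlap between genotypes at either time. All 7 cholinergic markers were above the input (median log2 ratio 2.77). The astrocyte, oligodendrocyte, microglia, and endothelial and mural marker lists had medians of -3.66, -3.19, -3.24, and -3.09, with 1 of 32 markers above the input. These markers were depleted and not absent: their summed level over the 24 IP libraries was 708 to 889 CPM for astrocytes, 1677 to 2517 CPM for oligodendrocytes, 39.0 to 52.2 CPM for microglia, and 14.8 to 28.7 CPM for endothelial and mural cells. In such bulk libraries fewer cells and less mRNA per cell cannot be told apart.

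Levels of the 34 genes in the cholinergic IP were compared per length of transcript. *Gapdh*, the glyceraldehyde-3-phosphate dehydrogenase, was highest with 3195 CPM per kb (2989 to 3398 over 24 libraries). *Aldoa*, an aldolase, and *Pkm*, the pyruvate kinase, followed with 2207 (2050.4 to 2308) and 2128 (2001 to 2348) CPM per kb, and their ranges overlapped. *Ldhb*, the heart-type lactate dehydrogenase, came next with 1494 CPM per kb (1179 to 1710.4), apart from both neighbours. *Eno2*, the neuron-specific enolase, had 791 and *Tpi1*, the triosephosphate isomerase, 735 CPM per kb, with overlapping ranges. Among the regulators and HIF genes, *Pdk2* stood at 75.5, *Pfkfb3* at 14.6, *Hif1a* at 4.93, and *Vegfa* at 4.43 CPM per kb. *Slc16a7*, a lactate and pyruvate carrier (MCT2), had 0.176 and *Hk2*, the inducible hexokinase, 0.0747 CPM per kb. *Hk2* rested on 1 to 11 counts a library, so a library with 3 counts or fewer cannot be told from the detection limit.

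**Figure D1:**
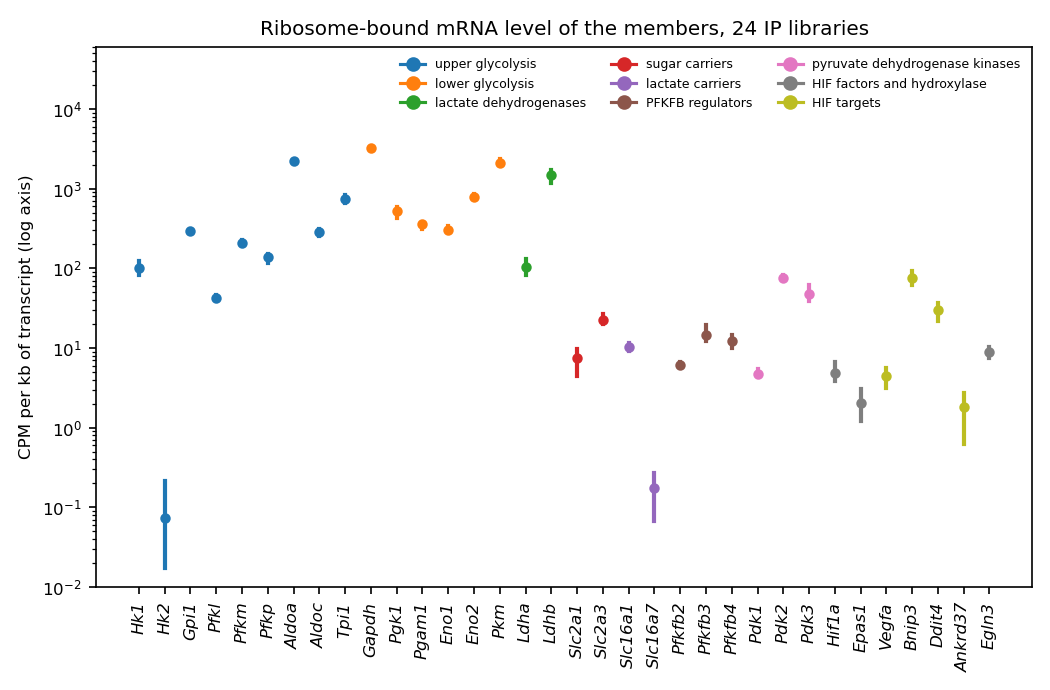
Level of each of the 34 genes in CPM per kb of transcript, on a log axis. Points are means and bars the lowest to highest of the 24 IP libraries, coloured by role. *Gapdh* (3195 CPM per kb) was highest and *Hk2* (0.0747) lowest.

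In most of the enzyme families a single form made up most of the level per length, and the shares in the IP and in the input differed most for aldolase, the glucose carriers, and the HIF alpha genes. *Hk1*, a hexokinase that can bind mitochondria, made up 99.9% ± 0.0447 (SD, n = 24 libraries) of the *Hk1* and *Hk2* level in the IP. Among the phosphofructokinases, *Pfkm* held 53.5% ± 1.15, *Pfkp* 35.6% ± 1.29, and *Pfkl* 10.9% ± 0.532, and in the single input library the shares were 62.5%, 26.8%, and 10.7%. *Aldoc*, the brain aldolase known from astrocytes and Purkinje cells, held 11.4% ± 0.431 of the aldolase level in the IP and 39.3% in the input. *Eno2* held 72.02% ± 1.60 of the level of *Eno1* and *Eno2*, against 56.2% in the input. *Ldhb* held 93.5% ± 0.496 of the *Ldha* and *Ldhb* level, against 89.5% in the input. For glucose carriers, *Slc2a3* (GLUT3, the carrier of neurons) held 75.3% ± 2.19 in the IP and 33.9% in the input, in which *Slc2a1* (GLUT1, known from brain vessels and glia) made up the rest. *Hif1a* held 70.7% ± 4.18 of the level of the HIF alpha genes in the IP and 33.9% in the input, and *Epas1* (HIF-2 alpha, known from endothelium) the rest. Of the PFKFB enzymes, which make or remove the activator of phosphofructokinase, *Pfkfb4* held 37.4% ± 2.14 in the IP and 16.0% in the input. With 1 input library these differences have no replicate on the input side and were not tested.

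Relative to the pooled input, 23 of the 34 genes were enriched in the IP, with a median log2 ratio of 0.63, against 49.5% of all tested genes above the input and a median of -0.013. All 24 IP libraries lay above the input for 22 genes, below it for 9, and on both sides for 3 (*Pdk1*, *Pfkfb3*, and *Ankrd37*). All 6 genes of the lower part of glycolysis, which yields ATP and pyruvate, were enriched (median 1.45), as were both lactate dehydrogenases and 7 of 9 genes of the upper part (median 1.205). The highest ratios were *Ldhb* at 1.92 (1.59 to 2.11 over the IP libraries), *Pkm* at 1.91, and *Tpi1* at 1.65. *Pfkfb4* stood at 1.58, against 0.10 for *Pfkfb3* and -0.31 for *Pfkfb2*. The lowest ratios were *Epas1* at -3.59 (-4.30 to -3.04), *Slc2a1* at -2.06, and *Vegfa*, the vascular growth factor, at -2.04. *Epas1* lay just below the endothelial and mural markers, whose ratios ran from -3.54 to -2.56, and the part of RNA from such cells in its IP counts was not tested. Scaling by library totals moved the median of all genes to -0.28, with 21 of 34 members then above the input. *Pfkfb3* (-0.35) and *Pdk3* (-0.078) changed sign under that scaling.

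**Figure D2:**
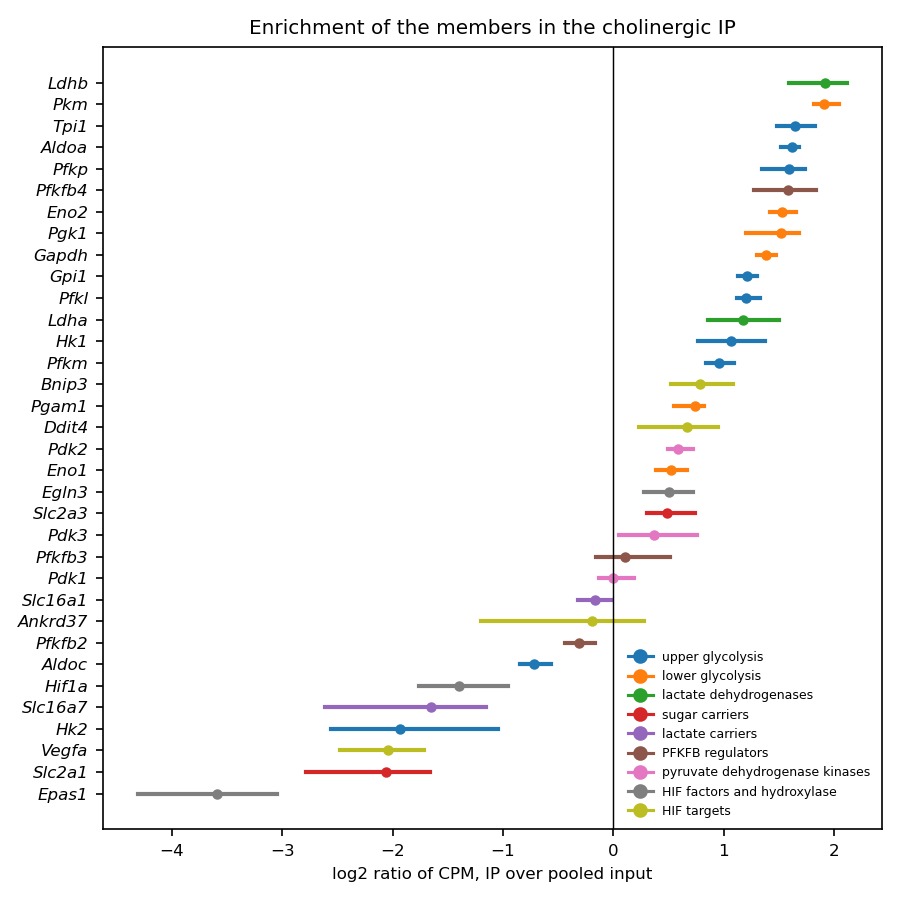
Log2 ratio of CPM in the IP over the pooled input for each gene. Points are the mean CPM of 24 IP libraries over the input and bars the lowest to highest library. *Ldhb* (1.92) was the most enriched and *Epas1* (-3.59) the most depleted.

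The abundant enzymes were measured with little spread between mice. The SD of log2 CPM within conditions was 0.047 for *Aldoa*, 0.050 for *Pgam1*, and 0.050 for *Pkm* (24 libraries in 4 conditions). It was larger for *Ldhb* (0.14) and *Ldha* (0.19), although *Ldhb* was the fourth most abundant gene per length. The most variable were the low genes *Hk2* (0.56), *Slc16a7* (0.48), and *Ankrd37* (0.43). For *Hk1* the SD was 0.16 and for *Epas1* 0.25.

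Between ChAT-BKO and control mice at ZT8, none of the 34 genes passed the test, and the fold changes of the abundant enzymes were bounded closely. With edgeR's quasi-likelihood test and Benjamini-Hochberg adjustment over 21738 genes, 0 of the 34 genes had an adjusted p under 0.05, against 0.184% of all genes. At an unadjusted p under 0.05 there were 2 of 34 (5.88%), against 4.83% of all genes. DESeq2 called 0 of the 34, against 0.442% of the genes it adjusted. The median log2 fold change of the 34 genes was 0.0083 and that of all genes 0.00013, with 18 genes above 0 and 16 below. In 0 of the 34 genes did the 6 ChAT-BKO libraries all lie on 1 side of the 6 controls, which held for 0.57% of all genes. The intervals were narrow: their median distance from estimate to limit was 0.14 on the log2 scale, against 0.37 for all genes, and 27 of 34 genes had a 95% interval inside a 1.2-fold change in either direction. These included all 14 genes of the glycolytic steps other than *Hk2*.

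*Epas1* had the smallest p at ZT8. Its level in controls at ZT8 was 11.0, 11.5, and 13.6 CPM (lowest, median, and highest of 6 libraries) and in ChAT-BKO 9.09, 9.74, and 11.8 CPM. In all, 5 of the 6 ChAT-BKO libraries lay under the control median, and the groups overlapped (log2 fold change -0.21 ± 0.095, SE, n = 6 per group, 95% interval -0.41 to -0.013, unadjusted p = 0.0381, adjusted p = 1 in edgeR). *Tpi1*, on chr6:124810586-124814296 of the minus strand (GRCm38), stood at 1048, 1134, and 1212 CPM in controls and 1119.9, 1212, and 1301 CPM in ChAT-BKO (log2 fold change 0.10 ± 0.048, SE, n = 6 per group, 95% interval 0.0021 to 0.20, unadjusted p = 0.0458, adjusted p = 1 in edgeR). Its groups overlapped, with 5 of 6 ChAT-BKO libraries over the control median.

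*Eno1*, the enolase of most tissues, stood at 563, 593, and 646 CPM in controls and 598, 640.1, and 689 CPM in ChAT-BKO at ZT8. All 6 ChAT-BKO libraries were above the control median and the groups overlapped (log2 fold change 0.094, 95% interval -0.010 to 0.20, adjusted p = 1). A near-identical copy, *Eno1b*, held 17.9% of the counts of both, which the counting could have split either way. *Pfkp*, a phosphofructokinase of the step that commits glucose to glycolysis, stood at 503, 577, and 597 CPM in controls and 559, 593, and 630.0 CPM in ChAT-BKO (log2 fold change 0.084, 95% interval -0.031 to 0.20). Of its ChAT-BKO libraries 4 of 6 lay over the control median. The *Pfkp* gene overlaps 748 bases of the antisense gene *Pitrm1*, which held 10651 counts over the 24 IP libraries. *Ldhb* stood at 1537, 1939, and 2108 CPM in controls and 1819.9, 2018, and 2230.3 CPM in ChAT-BKO, again lowest, median, and highest. The groups overlapped over most of their range (log2 fold change 0.11, 95% interval -0.042 to 0.26, adjusted p = 1), and the estimate was 0.055 without control replicate 5. Libraries differed in how steeply log2 CPM climbed per log2 unit of transcript length, with slopes from 0.833 to 1.01 over the 24, and with that slope as a covariate *Ldhb* was the 1 member of 34 called at ZT8 (log2 fold change 0.13, adjusted p = 0.0038 in edgeR), where 0.704% of all genes were called.

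The remaining members at ZT8 lay between -0.072 (*Pfkfb4*) and 0.072 (*Pgam1*) on the log2 fold change scale, apart from the low genes *Hk2* (0.35, 95% interval -0.69 to 1.39) and *Slc16a7* (0.19, -0.21 to 0.59). The abundant enzymes were held tightly: *Gapdh* at 0.0066 (95% interval -0.086 to 0.099), *Aldoa* at -0.036 (-0.12 to 0.051), and *Pkm* at 0.046 (-0.041 to 0.13). *Aldoa* lies 13.5 Mb from *Bmal1* on chromosome 7, the nearest of the 34 genes to it. *Ldha*, whose promoter shown above holds 2 E-boxes, gave -0.017 (-0.20 to 0.16). *Hif1a* itself was at 0.049 (-0.14 to 0.24). Its gene overlaps the antisense gene *Gm15283*, and whether the counting used strand was not given in the sources used here.

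At ZT20, none of the 34 genes passed the test between genotypes either. Of the 34 genes 0 had an adjusted p under 0.05 (0.23% of all genes did), and 2 had an unadjusted p under 0.05 (5.88%, against 6.28% of all genes). DESeq2 called 0 of the 34, against 0.56% of the genes it adjusted. The median log2 fold change was 0.018, against -0.0065 for all genes, with 21 genes above 0 and 13 below. The groups of 6 were apart for 0 of the 34 genes, against 0.506% of all genes, and 26 of 34 intervals lay inside a 1.2-fold change, again with all 14 genes of the glycolytic steps other than *Hk2*.

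*Tpi1* had the smallest p at ZT20, with 1075, 1147, and 1169.8 CPM in controls and 1148, 1244, and 1346 CPM in ChAT-BKO. All 6 ChAT-BKO libraries were above the control median, and the groups overlapped between 1148 and 1169.8 CPM (log2 fold change 0.13 ± 0.046, SE, n = 6 per group, 95% interval 0.028 to 0.22, unadjusted p = 0.0141, adjusted p = 0.652 in edgeR). Both of the leading genes at ZT20 had also been among the 5 smallest p at ZT8. *Pfkp* stood at 483, 537, and 594 CPM in controls and 545, 601, and 611 CPM in ChAT-BKO, also with all 6 above the control median (log2 fold change 0.12, 95% interval 0.015 to 0.23, adjusted p = 0.731). *Eno1* stood at 575, 612, and 619 CPM and 600.0, 654, and 683 CPM (log2 fold change 0.091, 95% interval -0.00076 to 0.18). In *Eno1* 5 of 6 ChAT-BKO libraries lay over the control median and the groups overlapped. With the length slope as a covariate *Tpi1* (log2 fold change 0.16, adjusted p = 0.00109) and *Ldhb* (0.11, adjusted p = 0.0256) were called by edgeR, 2 of 34 members, where 0.833% of all genes were called. *Ldhb* without that covariate was at 0.037 (95% interval -0.093 to 0.17), and at -0.0013 without ChAT-BKO replicate 4.

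Skeletal muscle, which expresses many glycolytic enzymes, was checked beside these values. At ZT20, 18 of 18 muscle markers had a fold change above 0 between genotypes, where 48.3% of all genes did. Their median log2 fold change was 2.09, and 3 of 18 were called, against 0.23% of all genes. At ZT8, 7 of 18 lay above 0 (median -0.098), where 50.04% of all genes did, and 0 were called (0.184% of all genes). The summed marker level at ZT20 was 10.4 to 32.9 CPM in controls (median 14.2) and 6.86 to 111 CPM in ChAT-BKO (median 78.5). At ZT8 it was 5.81 to 116 CPM (median 33.2) and 6.01 to 186 CPM (median 8.50). From ZT8 to ZT20 the markers had median log2 fold changes of -1.10 in controls and 0.69 in ChAT-BKO. Of the 18 markers, 3 and 16 lay above 0, against 50.9% and 50.8% of all genes, and 0 were called (0.115% and 0.285% of all genes). With the mean muscle level of each library as a covariate, the log2 fold changes at ZT20 were 0.17 for *Tpi1*, 0.12 for *Eno1*, 0.10 for *Pfkp*, 0.13 for *Ldhb*, -0.13 for *Egln3*, and -0.076 for *Bnip3*, against 0.13, 0.091, 0.12, 0.037, -0.15, and -0.11 without it, and 0 of the 34 genes were called in edgeR. Of these 6, *Ldhb* moved most. The part of muscle RNA in these values was not tested. Cholinergic markers summed to 4228 to 4586 CPM in controls and 4252 to 4879 CPM in ChAT-BKO at ZT20.

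On the HIF side of the list, *Egln3* and *Bnip3* were among the 5 genes with the smallest p at ZT20, and neither was called. *Egln3*, the prolyl hydroxylase that marks HIF alpha for destruction and is itself a HIF target, stood at 23.4, 25.6, and 27.5 CPM in controls and 20.2, 23.5, and 25.4 CPM in ChAT-BKO. All 6 ChAT-BKO libraries lay at or under the control median and the groups overlapped (log2 fold change -0.15, 95% interval -0.30 to 0.00041, unadjusted p = 0.0506, adjusted p = 0.793 in edgeR). *Bnip3*, a mitophagy receptor with an E-box in the promoter shown above, stood at 127, 139, and 163 CPM in controls and 120.0, 132, and 147 CPM in ChAT-BKO, with 5 of 6 at or under the control median (log2 fold change -0.11, 95% interval -0.24 to 0.019). The estimate for *Bnip3* was -0.071 without control replicate 2 and -0.071 with the length slope as a covariate. Of the other HIF genes, *Vegfa* was at 0.16 (-0.057 to 0.37), *Epas1* at -0.13 (-0.45 to 0.19), *Hif1a* at 0.063 (-0.17 to 0.30), and *Ddit4*, an inhibitor of mTORC1, at -0.020 (-0.19 to 0.15). Both glucose carriers were above 0, *Slc2a1* at 0.13 (-0.032 to 0.29) and *Slc2a3* at 0.10 (-0.023 to 0.22). The pyruvate dehydrogenase kinases lay near 0: *Pdk1* at -0.010, *Pdk2* at 0.00056, and *Pdk3* at 0.046.

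**Figure D3:**
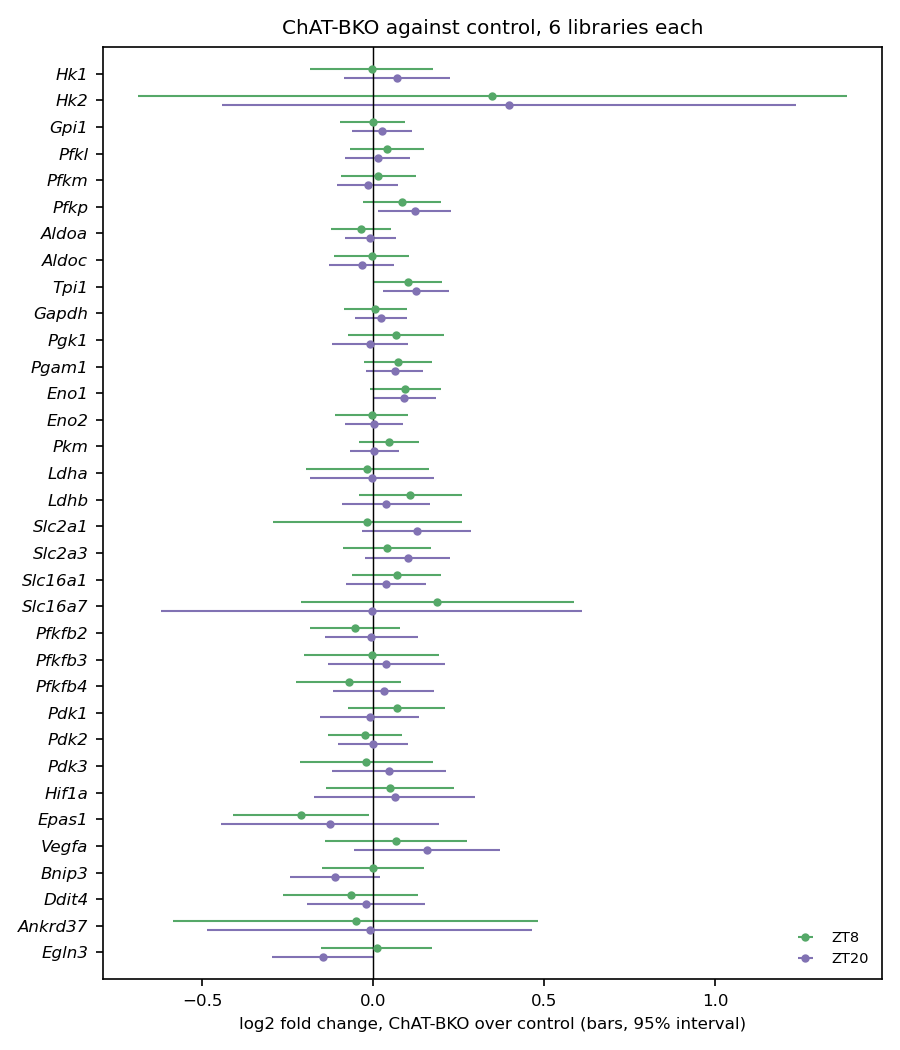
Log2 fold change of ChAT-BKO over control at ZT8 and at ZT20 for each of the 34 genes. Points are edgeR estimates from 6 libraries per group and bars their 95% intervals. The interval of *Tpi1* lay above 0 at both times (0.0021 to 0.20 at ZT8 and 0.028 to 0.22 at ZT20), with no gene called after adjustment.

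The time of day was compared within each genotype, ZT20 over ZT8. In controls, 0 of the 34 genes were called (0.115% of all genes were), and 0 had an unadjusted p under 0.05 (8.25% of all genes). DESeq2 called 0 (0.986% of the genes it adjusted), and the groups were apart for 0 of 34 (0.938% of all genes). The median log2 fold change was -0.0014, with 17 genes above 0 and 17 below, and 22 of 34 intervals lay inside a 1.2-fold change. *Bnip3* had the smallest p: 114, 127, and 149.6 CPM at ZT8 and 127, 139, and 163 CPM at ZT20 in controls. All 6 ZT20 libraries lay above the ZT8 median and the groups overlapped (log2 fold change 0.14 ± 0.068, SE, n = 6 per group, 95% interval -0.0047 to 0.28, unadjusted p = 0.0572, adjusted p = 0.627 in edgeR). *Egln3* stood at 20.0, 23.5, and 26.3 CPM at ZT8 and, as given above, 23.4 to 27.5 CPM at ZT20 (log2 fold change 0.15, 95% interval -0.011 to 0.30). In 5 of 6 ZT20 libraries it lay over the ZT8 median. *Gpi1*, the glucose-6-phosphate isomerase, stood at 802, 869, and 911 CPM and then 799.5, 816, and 892 CPM (log2 fold change -0.063, 95% interval -0.16 to 0.031). *Pfkfb3*, the PFKFB enzyme that most favours glycolysis, stood at 60.7, 73.3, and 92.4 CPM and then 58.6, 67.0, and 76.9 CPM (-0.13, -0.32 to 0.065). For both, 5 of 6 ZT20 libraries lay under the ZT8 median and the groups overlapped. Leaving out ZT8 replicate 5 moved the estimate for *Pfkfb3* to -0.051. *Hk2* had the largest estimate, 0.74 (95% interval -0.20 to 1.69), on 0.0948 to 0.517 CPM at ZT8 and 0.244 to 0.657 CPM at ZT20, or 1 to 11 counts a library. With the length slope as a covariate 0 of 34 genes were called in controls, where 1.57% of all genes were.

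In ChAT-BKO, 0 of the 34 genes were called between times (0.285% of all genes were), and 2 had an unadjusted p under 0.05 (5.88%, against 9.42% of all genes). DESeq2 called 0 (1.87% of the genes it adjusted), and the groups were apart for 0 of 34 (1.18% of all genes). The median log2 fold change was 0.019, and 25 of 34 intervals lay inside a 1.2-fold change. *Slc2a1* stood at 19.0, 22.4, and 25.9 CPM at ZT8 and 24.3, 25.6, and 32.1 CPM at ZT20. All 6 ZT20 libraries lay above the ZT8 median, and the highest, 32.1 CPM, stood above the other 5 (log2 fold change 0.24 ± 0.089, SE, n = 6 per group, 95% interval 0.053 to 0.43, unadjusted p = 0.0145, adjusted p = 0.359 in edgeR). *Vegfa* stood at 10.6, 11.8, and 12.7 CPM at ZT8 and 11.5, 13.5, and 15.5 CPM at ZT20 (log2 fold change 0.23 ± 0.093, SE, n = 6 per group, 95% interval 0.034 to 0.42, unadjusted p = 0.0239, adjusted p = 0.421 in edgeR). The groups overlapped for both genes, and with the length slope as a covariate *Slc2a1* was at 0.16. *Slc2a1* and *Vegfa* are among the members with the lowest IP over input ratios, and the endothelial and mural markers summed to 14.8 to 20.8 CPM at ZT8 and 16.9 to 27.6 CPM at ZT20 in ChAT-BKO, with 7 of 8 of them above 0 (median log2 fold change 0.30), 0 of 8 called, and 0 of 8 at 0 counts in either group. In the same comparison 8 of 8 astrocyte, 3 of 8 oligodendrocyte, and 5 of 8 microglia markers lay above 0, where 50.8% of all genes did. Their median log2 fold changes were 0.16, -0.045, and 0.0016. In controls 6 of 8 endothelial and mural markers lay above 0 (median 0.13), against 50.9% of all genes. The part of RNA from any of these cells in the values of *Slc2a1* and *Vegfa* was not tested.

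*Ddit4*, which is induced by low oxygen and by glucocorticoids, stood at 40.4, 50.3, and 54.6 CPM at ZT8 and 44.0, 57.7, and 62.7 CPM at ZT20 in ChAT-BKO (log2 fold change 0.16, 95% interval -0.025 to 0.34, adjusted p = 0.62). In 5 of 6 ZT20 libraries it lay over the ZT8 median. With the length slope as a covariate it was the 1 member of 34 called (log2 fold change 0.21, adjusted p = 0.0144 in edgeR), where 2.3% of all genes were called. *Pfkm*, the muscle-type phosphofructokinase and here the main one, stood at 568, 619.7, and 638 CPM at ZT8 and 550.2, 585, and 598 CPM at ZT20 (-0.078, -0.17 to 0.019). All 6 ZT20 libraries of *Pfkm* lay under the ZT8 median and the groups overlapped. *Hk2* was again high and imprecise at 0.79 (-0.14 to 1.71), on 0.15 to 0.561 CPM at ZT8 and 0.132 to 1.19 CPM at ZT20, and at 0.50 without ZT20 replicate 2. The glycolytic steps other than *Hk2* lay between -0.078 and 0.038 in ChAT-BKO and between -0.12 and 0.053 in controls.

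**Figure D4:**
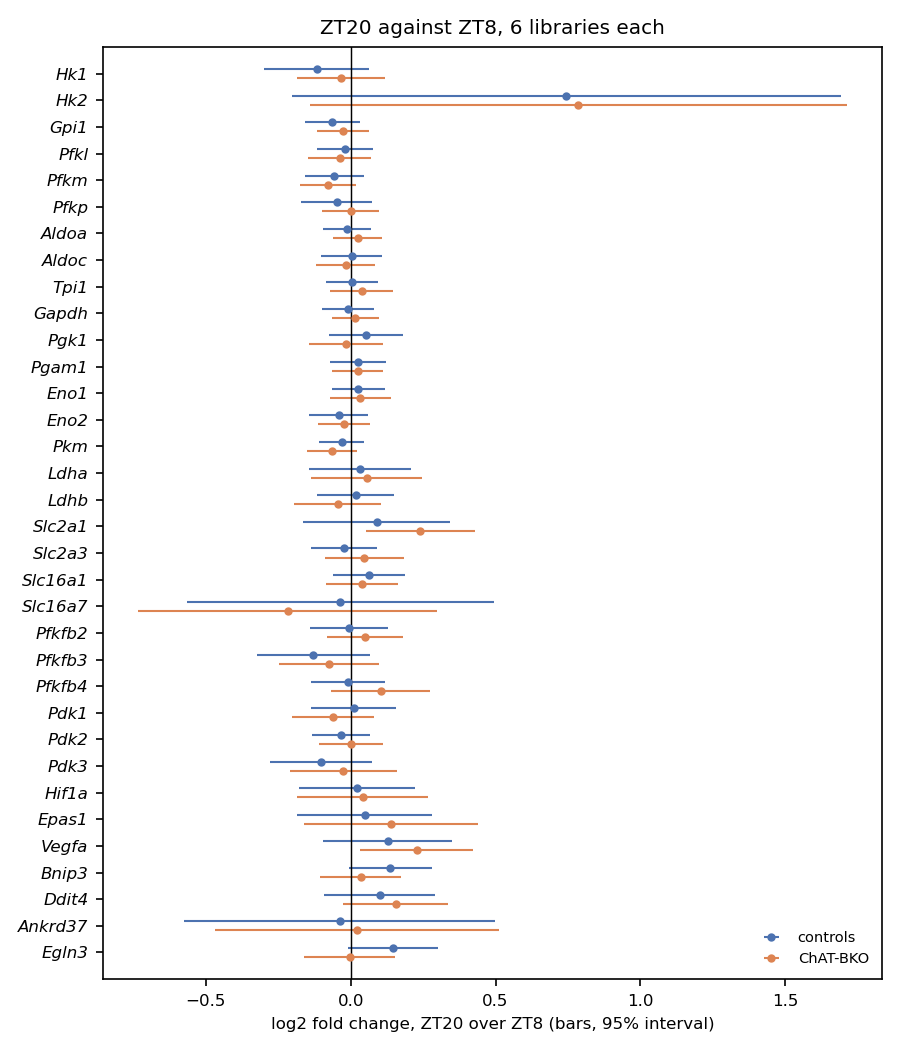
Log2 fold change of ZT20 over ZT8 in controls and in ChAT-BKO for each of the 34 genes. Points are edgeR estimates from 6 libraries per group and bars their 95% intervals. The intervals of *Slc2a1* (0.053 to 0.43) and *Vegfa* (0.034 to 0.42) lay above 0 in ChAT-BKO.

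Whether the genotype effect differed between the times, which is also whether the time effect differed between genotypes, was tested as an interaction over all 24 IP libraries. None of the 34 genes was called, and of all genes 0%. At an unadjusted p under 0.05 there were 0 of 34 and 3.9% of all genes, and DESeq2 called 0 of 34 and 0% of all genes. With the length slope as a covariate 0 of 34 and 0.0046% of all genes were called. *Egln3* had the smallest p, with an interaction of -0.15 (95% interval -0.36 to 0.062, unadjusted p = 0.161, adjusted p = 1 in edgeR). *Pfkfb4* came next with 0.11 (-0.092 to 0.32), on medians of 44.4 and 41.6 CPM in controls and ChAT-BKO at ZT8 and 43.7 and 43.7 at ZT20. *Bnip3* (-0.10, -0.30 to 0.10), *Slc2a1* (0.15, -0.17 to 0.48), and *Slc2a3* (0.073, -0.094 to 0.24) followed. The interaction of *Slc2a1* was 0.033 with the length slope and 0.26 with the muscle level as a covariate, and it ran from 0.062 without control ZT8 replicate 6 to 0.26 without control ZT8 replicate 2. For *Pfkfb4* the estimate was 0.058 without ChAT-BKO ZT20 replicate 3. At ZT8 the glucose carrier *Slc2a3* stood at 79.6, 90.1, and 93.4 CPM in controls and 83.9, 89.4, and 98.8 CPM in ChAT-BKO. Its levels at ZT20 were 81.9, 86.3, and 91.3 CPM in controls and 85.8, 90.6, and 107 CPM in ChAT-BKO, and all 4 groups overlapped. The intervals were wider here, with a median distance from estimate to limit of 0.19 over the 34 genes and of 0.51 over all genes.

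The remaining members are given by role. *Ldha*, the muscle-type lactate dehydrogenase and a classic HIF-1 target, lay at -0.0022 between genotypes at ZT20 (95% interval -0.18 to 0.18), at 0.031 between times in controls (-0.14 to 0.21), and at 0.055 in ChAT-BKO (-0.14 to 0.25). *Slc16a1*, the lactate carrier MCT1, lay between 0.037 and 0.069 in the 4 pairwise comparisons. *Hk1* lay between -0.12 (ZT20 over ZT8 in controls, 95% interval -0.30 to 0.064) and 0.069, and its gene overlaps the antisense gene *Hk1os*. *Pgk1*, the phosphoglycerate kinase of the first ATP-yielding step, gave 0.067 (-0.073 to 0.21) and -0.010 (-0.12 to 0.10) between genotypes at ZT8 and ZT20. *Aldoc* gave -0.0040 (-0.11 to 0.11) and -0.034 (-0.13 to 0.060). *Ankrd37*, a small HIF-1 target, had 0.58 to 2.50 CPM in controls at ZT8, and its interval at ZT20 between genotypes ran from -0.49 to 0.47. None of the members named here passed the test in any comparison in edgeR.

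Of the other genes of the HIF pathway, 32 passed the filter on low counts, and 2 of them encode the catalytic subunits of collagen prolyl 4-hydroxylase: *P4ha1* rose from ZT8 to ZT20 in both genotypes and *P4ha2* in ChAT-BKO. *P4ha1*, known as a HIF-1 target, stood at 12.3, 15.8, and 18.4 CPM at ZT8 and 20.2, 21.7, and 26.0 CPM at ZT20 in controls, and at 13.0, 14.9, and 17.9 CPM and 22.1, 24.3, and 26.8 CPM in ChAT-BKO. In both genotypes all 6 ZT20 libraries lay above all 6 ZT8 libraries. It was called in controls (log2 fold change 0.53 ± 0.096, SE, adjusted p = 0.0332 in edgeR) and in ChAT-BKO (0.70 ± 0.085, adjusted p = 4.65e-04). The call in controls was lost without ZT8 replicate 1 or 4 or ZT20 replicate 2, 3, 4, or 6 (adjusted p from 0.0528 to 0.108, log2 fold change 0.49 to 0.55). *P4ha2* stood at 25.4, 28.7, and 30.1 CPM at ZT8 and 33.8, 39.1, and 44.9 CPM at ZT20 in ChAT-BKO, without overlap, and rose by 0.43 ± 0.074 (SE, adjusted p = 0.0108 in edgeR). In controls it ran from 28.5 to 36.9 CPM at ZT8 and from 32.9 to 38.5 CPM at ZT20, and its fold change was 0.16 (95% interval 0.012 to 0.31, adjusted p = 0.562). The difference of the time effect between genotypes was 0.27 for *P4ha2* (95% interval 0.066 to 0.47, adjusted p = 1) and 0.17 for *P4ha1* (-0.090 to 0.43), and neither was called. From ZT8 to ZT20 the endothelial and mural markers had median log2 fold changes of 0.13 in controls and 0.30 in ChAT-BKO. The part of RNA from such cells in the values of *P4ha1* and *P4ha2* was not tested.

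*Tfrc*, the transferrin receptor and a target of HIF and of iron-sensing proteins, fell in ChAT-BKO from 67.4, 75.2, and 79.8 CPM at ZT8 to 41.8, 55.6, and 65.2 CPM at ZT20 (log2 fold change -0.42 ± 0.089, SE, adjusted p = 0.0481 in edgeR). This call was lost when any 1 of 10 of the 12 libraries was left out (all 6 at ZT8, and ZT20 replicates 2, 4, 5, and 6, adjusted p from 0.0502 to 0.124, log2 fold change -0.45 to -0.36), and with the mean muscle level as a covariate (log2 fold change -0.42, adjusted p = 0.198). In controls the levels were 74.4 to 87.5 CPM at ZT8 and 59.4 to 87.9 CPM at ZT20 (-0.16, 95% interval -0.32 to 0.0063). In the time comparisons, 1 of the 32 genes was called higher and 0 lower in controls, and 2 higher and 1 lower in ChAT-BKO, against 0.115% and 0.285% of all genes. The list's median log2 fold change was 0.031 in controls and 0.056 in ChAT-BKO, against 0.0031 and 0.0030 for all genes. The list was chosen with earlier results of these data known, so its counts and medians beside all genes only describe the genes picked. Between genotypes 0 of 32 were called at either time. The smallest p at ZT8 belonged to *Ccng2*, a cyclin family member (0.30, 95% interval 0.10 to 0.49, adjusted p = 0.621), and at ZT20 to *Tfrc* (-0.37, -0.58 to -0.17, adjusted p = 0.212) and *Ndrg1* (0.22, 0.077 to 0.36, adjusted p = 0.406).

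The neighbouring branches of glucose use gave no calls in any of the 5 comparisons in edgeR. These were the 23 other glycolysis genes that passed the filter, the 12 genes of pyruvate entry into mitochondria, and the 16 genes of glycogen and the pentose phosphate pathway. These lists, too, were chosen with earlier results of these data known. For pyruvate entry, 10 of 12 genes lay above 0 between genotypes at ZT8 (median log2 fold change 0.044) and 9 of 12 at ZT20 (0.048), where 50.04% and 48.3% of all genes lay above 0. *Dld*, the shared E3 subunit of pyruvate dehydrogenase, was at 0.13 at ZT8 (95% interval 0.028 to 0.23, adjusted p = 0.882), and *Pdp1*, the phosphatase that opposes the PDK enzymes, was at 0.17 in controls (0.049 to 0.29) and 0.18 in ChAT-BKO (0.045 to 0.31) from ZT8 to ZT20. The genes of glycogen and pentose phosphate had medians of -0.027 and -0.026 between genotypes at ZT8 and ZT20, with 4 and 4 of 16 genes above 0. The other glycolysis genes had medians of 0.056 and 0.027. Between times, the medians of the 3 lists lay between -0.029 and 0.033.

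**Figure D5:**
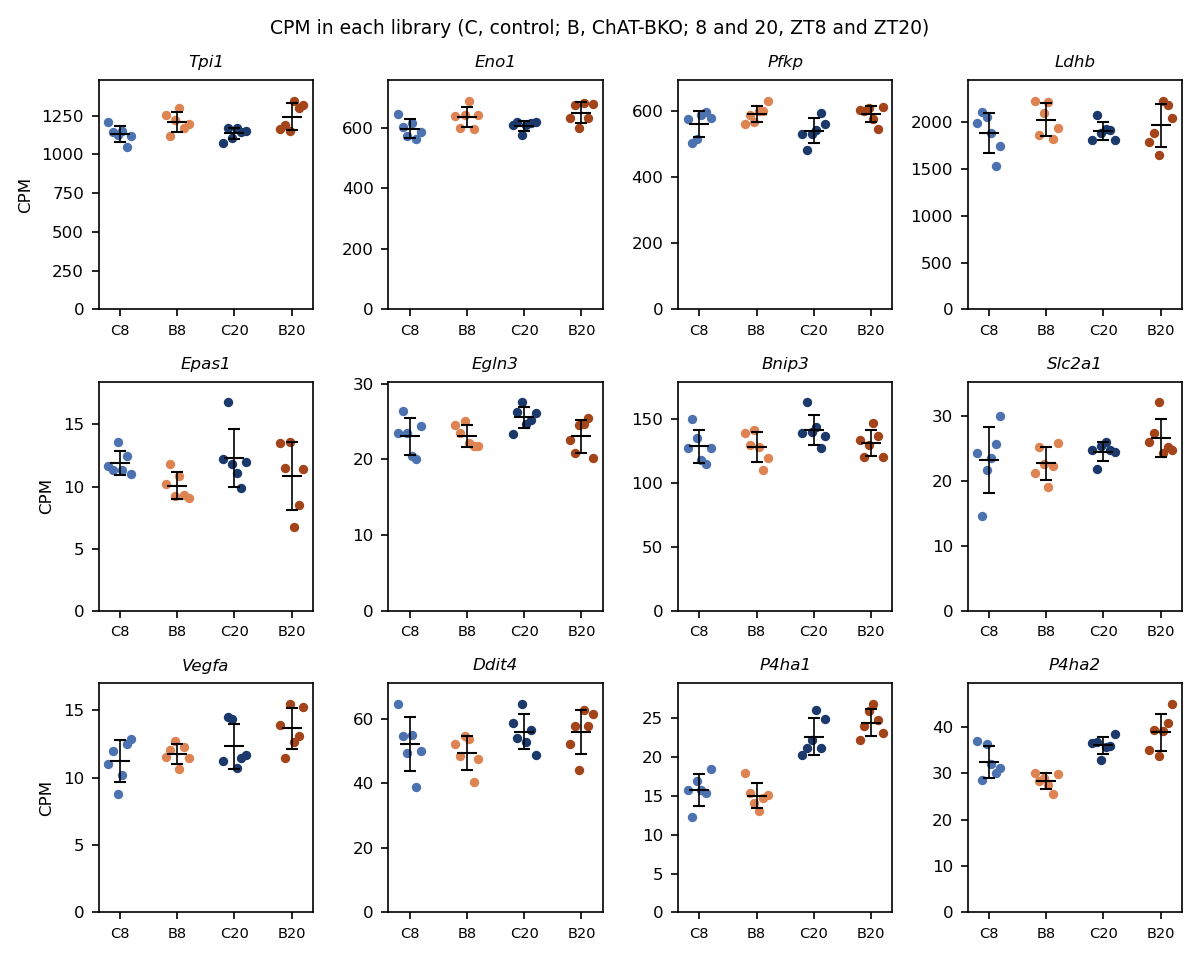
CPM in each of the 24 IP libraries for 10 members and for *P4ha1* and *P4ha2*, on axes that start at 0. Points are libraries, bars the mean ± SD of 6. C is control, B is ChAT-BKO, and 8 and 20 are ZT8 and ZT20. In the panels of *P4ha1* the ZT20 libraries lay above the ZT8 libraries in both genotypes, and in those of the members the groups overlapped.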

How the data were processed

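Expected counts per gene were deposited by the authors, who by their processing notes and methods aligned reads from a stranded mRNA kit with STAR 2.7.5 to mm10 and counted them with RSEM against Ensembl 98. Of the values, 6.11% were not whole and were rounded. The strand setting was not given in the sources used here. Transcript isoforms, such as those of *Pkm*, cannot be separated in gene counts.

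Groups came from the sample titles. In each comparison the 12 libraries concerned (24 for the interaction) were fitted in edgeR 4.0.16 with TMM scaling and the quasi-likelihood F test, two-sided, with Benjamini-Hochberg adjustment over 21738 genes and a threshold of adjusted p under 0.05. Log2 fold changes and 95% intervals are from that fit. CPM used TMM over the 24 IP libraries. Levels per kb used the longest CCDS transcript of GENCODE M21 (GRCm38). The input has 1 library, so its ratios were not tested. Each library is a biological replicate by its label, and in all 60 pairs within a condition libraries differed by more than counting noise (chi-square per degree of freedom 1.86 to 27.8).

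The members and lists were chosen with earlier results of these data known. Levels of each group were given for the 5 members with the smallest p in each comparison and for genes of other lists with an adjusted p under 0.05, and the 2 smallest p of those lists could be named. *Ldhb* at ZT20 and the low genes *Slc16a7* and *Ankrd37* were named after their values were seen. Alternatives were DESeq2 1.42.0, its size factors in edgeR, no filter and filterByExpr, limma 3.58.1 voom with sample quality weights, a replicate block, the length slope or muscle level as a covariate, processed copies summed with their parent, all 24 libraries in 1 fit, and each library left out. The fits were tested on simulated counts.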

Additional observations from a re-analysis of the deposited data

Results flagged for a closer look

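In 9 of 136 groups of 6 libraries (34 genes in 4 conditions), 1 library stood far from the other 5 by Dixon's gap test, where chance alone marks about 1 group in 20. *Gpi1* had 892 CPM in replicate 6 of controls at ZT20, against 799.5 to 830.4 in the other 5. In replicate 4 of ChAT-BKO at ZT20, *Pfkl* was at 167 CPM, and the other 5 libraries ran from 151 to 156. For *Aldoc*, replicate 2 of controls at ZT20 held 877 CPM and the rest 758 to 793. *Pgam1* had 559 CPM in replicate 2 of controls at ZT8, against 618 to 649 in the other 5. In replicate 3 of controls at ZT20, *Eno1* was at 575 CPM, and the other 5 libraries ran from 609 to 619. For *Pfkfb3*, replicate 3 of ChAT-BKO at ZT20 held 84.1 CPM and the rest 61.3 to 69.8. *Pdk1* had 28.0 CPM in replicate 1 of controls at ZT8, against 22.8 to 24.3 in the other 5. In replicate 5 of controls at ZT8, *Hif1a* was at 29.5 CPM, and the other 5 libraries ran from 19.9 to 23.4. For *Epas1*, replicate 2 of controls at ZT20 held 16.8 CPM and the rest 9.89 to 12.2.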

How the results depend on the processing

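The count of members called was 0 in each of the 5 comparisons under DESeq2, its size factors in edgeR, both filters, limma voom, the replicate block, the muscle covariate, copies summed with their parent, all 24 libraries in 1 fit (not run for the interaction, which already uses them), and each library left out (0 to 0 in every comparison). With the length slope as a covariate it was 1 between genotypes at ZT8, 2 between genotypes at ZT20, and 1 between times in ChAT-BKO. In this fit the covariate takes up spread between libraries, and the cause of the calls was not tested. The number of members above the input was 21 to 24 under the other scalings and single conditions, against 23. The ratios of *Pfkfb3* and *Pdk3* over input changed sign under library totals, as given above. Single fold changes were followed for the 5 members with the smallest p in each comparison and a few further named genes. Among these the only change of sign was *Ldhb* between genotypes at ZT20. It was -0.0013 without ChAT-BKO replicate 4, against 0.037 with it and up to 0.083 without another library. Signs of the remaining members were not followed. Of the followed estimates of at least 0.1 on the log2 scale, those that a single library or covariate moved by over 1.5 times stand beside their values. They are *Ldhb* between genotypes at ZT8, *Bnip3* at ZT20, *Pfkfb3* in controls, *Hk2* and *Slc2a1* in ChAT-BKO, and the interactions of *Slc2a1* and *Pfkfb4*. Replicate numbers were not taken as pairs in the main fits. The correlation of same-numbered deviations ran from -0.36 to 0.56 over 24 pairs, which does not settle whether the numbers pair the samples. The replicate block left 0 members called in each comparison and lost the call of *Tfrc* between times in ChAT-BKO (adjusted p = 0.0782). Over all genes, calls between genotypes at ZT8 and ZT20 and between times in controls and ChAT-BKO numbered 40, 50, 25, and 62, against 70, 91, 127, and 225 in DESeq2, 153, 181, 341, and 499 with the length slope, 69, 61, 86, and 47 with the replicate block, 33, 20, 29, and 41 with the muscle level, 50, 61, 32, and 140 in the fit of 24 libraries, and 19 to 42, 29 to 69, 11 to 28, and 33 to 56 with a library left out. Depth limits *Hk2*, *Ankrd37*, and *Slc16a7*, whose intervals allow changes beyond 1.2-fold in every comparison.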
